A study of Mus musculus with 4 samples.

Results

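The genes described here encode the receptor chains of the interferons and the kinases bound to them: Ifngr1 and Ifngr2 for the receptor of interferon-gamma (IFN-γ), Ifnar1 and Ifnar2 for the receptor of type I interferons, and the kinases Jak1, Jak2 and Tyk2. They were chosen by gene name, and every probe whose transcript accession mapped to one of these names was kept, which gave 7 genes of the 19751 with a named probe, with 9 probes in all. The cells were C2C12, an established mouse myoblast line that forms myotubes when serum is lowered, on day 3 of myogenic differentiation. RNA of cells given IFN-γ at 1 ng/ml was labelled with Cy5, and RNA of untreated cells of the same line and day with Cy3. Both were hybridised together on each of 4 Agilent arrays, called biological replicates 1 to 4. Whether the controls were 4 separate cultures is not given, and the p-values therefore cover only how much these arrays differed from each other, which can include technical spread. No array had the dyes swapped, so each difference below holds the dye together with the treatment, and the 2 cannot be told apart. The labels give the horse serum of the differentiation medium as 2% in one place and 10% in another, for treated and control cells alike.

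Interferon receptors have no kinase activity of their own. IFN-γ binds the receptor chain IFNGR1, which carries JAK1, and draws in IFNGR2, which carries JAK2. The kinases then phosphorylate transcription factors of the STAT family, whose dimers bind gamma-activated sites (GAS) in the DNA. Type I interferons bind IFNAR2, which carries JAK1, together with IFNAR1, which carries TYK2, and activate a complex with STAT2 and IRF9 that binds the interferon-stimulated response element (ISRE). Myoblasts carry both receptors, and IFN-γ is known to hold back their differentiation.

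Among these genes Ifnar2 stood apart. Its log2 ratio of treated over control was 1.06 ± 0.15 (SD, n = 4), a 2.09-fold higher level in IFN-γ-treated cells. A second rise was seen on 1 of the 3 probes of Ifnar1, at 0.42 ± 0.21, whereas its brightest probe had −0.21 ± 0.21 and did not pass. Neither chain of the IFN-γ receptor passed the test, nor did any of the 3 kinases, whose ratios lay between −0.06 and 0.27. In all, 2 of 9 probes were called higher and 0 lower (limma, adjusted p under 0.05). Over all 28934 tested probes 16.5% were called higher and 12.6% lower, so 2 of 9 is close to the background. At least 2-fold higher was 1 of the 9 probes, against 1.44% of all tested probes, and at least 2-fold lower were 0 of 9, against 1.12%.

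Median spot intensities per array lay between 149.5 and 264 for treated RNA in Cy5 and between 79.75 and 97 for control RNA in Cy3. Log2 ratios of the arrays correlated with each other at 0.54 to 0.89 across tested probes, and replicate 2 correlated least, with a mean of 0.62 against 0.76 to 0.81 for the others. All 12 skeletal muscle lineage markers, Myod1, Myog and Des among them, exceeded background clearly in both channels of each array. Of 10 leukocyte markers 7 were tested and 5 exceeded it in control cells on all arrays, while Ptprc did so on 1 array only. Of the 12 muscle markers 1 was called higher and 5 lower, and of 7 tested fibroblast markers 6 were called higher and 0 lower, with a median of 0.65. Of the 7 tested leukocyte markers 0 were called higher and 2 lower. Of 4 tested endothelial markers 0 were called higher and 1 lower, and of 3 tested epithelial markers 0 and 0. The part of these markers in the results below was not tested. In RNA of a whole culture, fewer cells of a type and less RNA per cell cannot be told apart. All 16 genes of a reference list of IFN-γ responses were called higher, with a median log2 ratio of 3.77, against 18.7% of all tested genes. The list was chosen with earlier results of these data known, so this count is no test of the response. Gbp3, a guanylate-binding GTPase, had 7.08 ± 0.32, Socs1, an inhibitor of JAK kinases, had 1.75 ± 0.25, and Irf1, an interferon regulatory factor, had 2.74 ± 0.20 with 0.29 on its second probe.

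**Figure D1:**
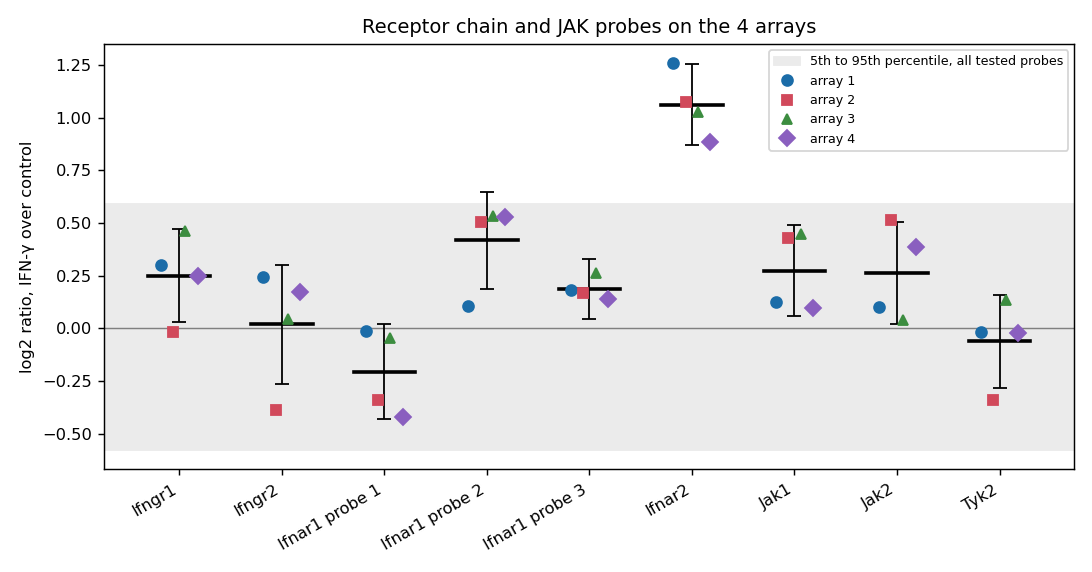
Log2 ratio of IFN-γ-treated over control cells on each of the 4 arrays (symbols) for the 9 probes, with the mean (thick bar) and its 95% interval from limma (thin bar). The grey band spans the 5th to 95th percentile of the mean ratios of all tested probes, −0.58 to 0.59, and the Ifnar2 mean alone lies above it; probes 1 to 3 of Ifnar1 run from brightest to dimmest.

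Ifnar2 encodes the high-affinity chain of the type I receptor. Its normalised log2 level was 11.43, 11.16, 11.29 and 11.27 in treated cells of replicates 1 to 4, against 10.18, 10.09, 10.26 and 10.38 in control cells. Every treated value lay above every control value. Such a separation upward was found for 17.7% of all probes with both levels on all arrays. The ratios were 1.26, 1.07, 1.03 and 0.89, with an adjusted p of 0.000976 (limma) and a 95% interval of 0.87 to 1.25, or 1.83-fold to 2.38-fold. The ratio ranked as number 372 of the 28934 tested probes from the highest. Before normalisation the spot had intensities of 6234, 3053, 6231 and 5445 in Cy5 and 720, 478, 467 and 686 in Cy3, over local backgrounds of 37.5 to 54.5 in Cy5 and 34 to 42 in Cy3 across the 9 probes. Leaving out each replicate in turn gave ratios of 0.995 to 1.12, all past the threshold. Ifnar2 is spliced into membrane-bound and soluble forms, and the gene had 1 probe (A_52_P190405), so which form it reports is not known from these files.

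**Figure D2:**
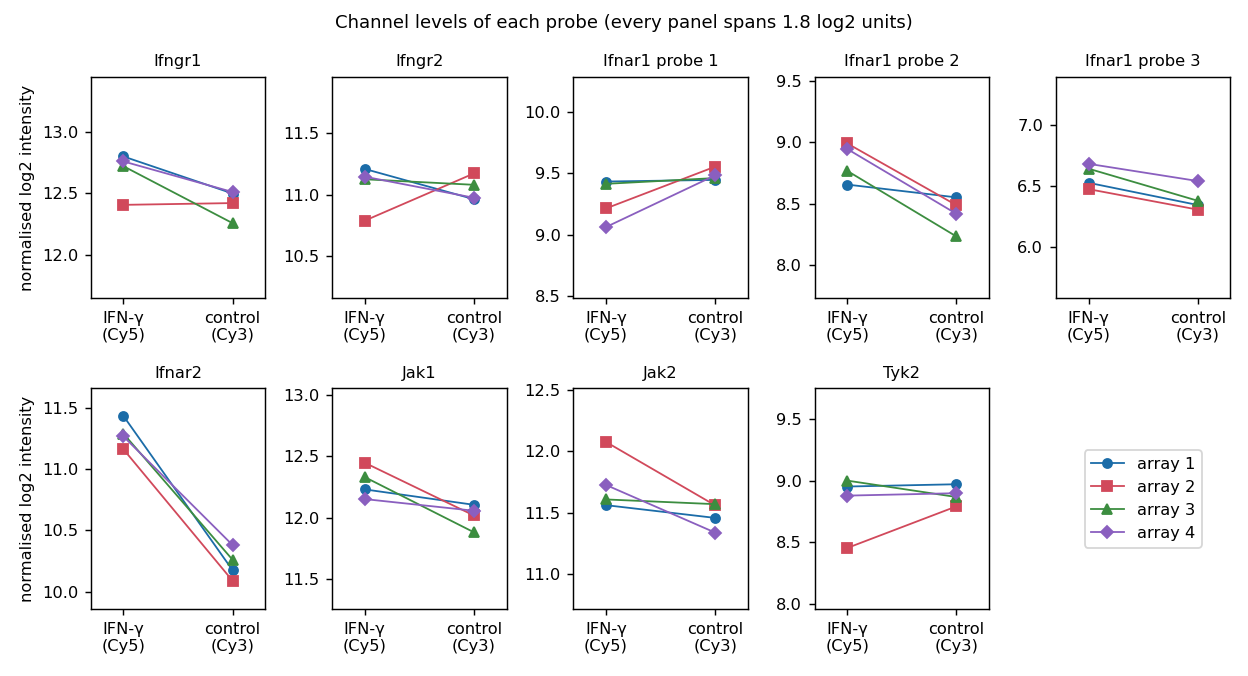
Normalised log2 intensity of each probe in IFN-γ-treated cells (left of each panel) and control cells (right), with 1 line per array. All panels span the same number of log2 units, and the level of a probe cannot be set against that of another. The 4 lines of Ifnar2 fall steeply from treated to control, while those of Ifngr1, Ifngr2 and Tyk2 do not all run in the same direction.

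Ifnar1 encodes the other chain of the type I receptor, and its 3 probes, all assigned to the same transcript, did not give the same ratio. The brightest probe (A_55_P2036337) had levels of 9.43, 9.21, 9.41 and 9.06 in treated cells, against 9.45, 9.55, 9.46 and 9.48 in control cells. All its treated values were below all its control values, as held for 11.7% of probes, and its ratios were below 0 on 4 of 4 arrays, as for 22.2%, but the values of −0.01, −0.34, −0.05 and −0.42 did not pass (adjusted p = 0.148, limma, 95% interval −0.43 to 0.02). The second probe (A_55_P2454784) had levels of 8.65, 8.99, 8.77 and 8.94 in treated cells, against 8.55, 8.49, 8.23 and 8.42 in control cells. Here the treated values were the higher ones without overlap, as held for 17.7% of probes. The ratios were 0.10, 0.50, 0.53 and 0.53 (adjusted p = 0.0224, limma, 95% interval 0.19 to 0.65). That call depended on which arrays were kept. Without replicate 3 the probe had 0.38 with an adjusted p of 0.106 (limma), and without replicate 4 it had 0.38 with 0.102. It still passed without replicate 1, at 0.52 with 0.0182, and without replicate 2, at 0.39 with 0.0191. The third probe (A_55_P2438722) stood well above background in treated cells on all 4 arrays and in control cells on none, so it entered the test through the treated channel alone and its control level is only a bound. Its levels were 6.53, 6.48, 6.64 and 6.68 in treated cells, against 6.35, 6.31, 6.38 and 6.54 in control cells. The groups overlapped and the probe was not called (adjusted p = 0.0589, limma). The brightest probe was below the second one in ratio on 4 of 4 arrays, by a mean of −0.62 ± 0.37 (SD), with a two-sided exact sign-flip permutation p of 0.125, the smallest that 4 arrays allow. With the mean of its probes, Ifnar1 had 0.13 and an adjusted p of 0.139 (limma).

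Set against each other, the chains of the type I receptor had unlike ratios. The ratio of the brightest Ifnar1 probe minus that of Ifnar2 was −1.27, −1.41, −1.07 and −1.31, with a mean of −1.27 ± 0.14. Ifnar2 was the higher ratio on 4 of 4 arrays, and the exact sign-flip permutation p was 0.125, or 0.208 adjusted over the 5 pairs compared, the smallest p of this test with 4 arrays being above 0.05.

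The promoters of Ifnar1 and Ifnar2 are shown because these genes held the called probes, and that of Ifngr1 because it encodes the chain that binds IFN-γ and held no match. All 7 genes were matched in the RefSeq promoter table (build GRCm38.p6), which gives 250 bases before and 50 bases after a start. The windows are chr16:91372533-91372832 for Ifnar2, chr16:91484965-91485264 for Ifnar1 and chr10:19591699-19591998 for Ifngr1, each on the plus strand, written 5′ to 3′ with a match to the GAS letters in capitals.
Ifnar2: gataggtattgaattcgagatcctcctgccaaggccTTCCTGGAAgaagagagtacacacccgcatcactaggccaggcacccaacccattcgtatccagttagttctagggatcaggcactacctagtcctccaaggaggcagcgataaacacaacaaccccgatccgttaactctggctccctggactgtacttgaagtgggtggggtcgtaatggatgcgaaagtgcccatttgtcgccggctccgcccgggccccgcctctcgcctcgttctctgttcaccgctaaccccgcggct
Ifnar1: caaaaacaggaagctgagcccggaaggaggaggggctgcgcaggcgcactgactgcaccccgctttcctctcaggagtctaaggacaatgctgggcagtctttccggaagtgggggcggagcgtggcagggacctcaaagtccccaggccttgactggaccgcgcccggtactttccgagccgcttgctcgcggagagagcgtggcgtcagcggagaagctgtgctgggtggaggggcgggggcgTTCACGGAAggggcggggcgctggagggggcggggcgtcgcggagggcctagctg
Ifngr1: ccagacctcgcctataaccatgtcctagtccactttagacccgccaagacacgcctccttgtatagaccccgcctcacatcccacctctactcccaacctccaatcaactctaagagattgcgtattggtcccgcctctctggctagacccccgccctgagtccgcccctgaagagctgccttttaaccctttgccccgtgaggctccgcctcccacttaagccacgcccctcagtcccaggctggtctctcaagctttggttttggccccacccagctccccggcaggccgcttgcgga

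The letters searched were TTCNNNGAA for GAS, which reads the same on both strands, and 2 copies of GAAA set 2 bases apart, on either strand, for ISRE. Ifnar2 held TTCCTGGAA at bases 37 to 45 of its window and Ifnar1 held TTCACGGAA at bases 246 to 254, while the windows of Ifngr1, Ifngr2, Jak1, Jak2 and Tyk2 held neither motif. GAS letters were found in 8.3% of 32851 promoters of the same length and ISRE letters in 3.44%, in 0 of the 7 genes described here. Of 12 reference response genes with a promoter in the table, 3 held the GAS letters, Igtp, Irf1 and Psmb8, and 7 held the ISRE letters. A match is a description of the letters, not of binding.

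Ifnar2, Il10rb, Ifnar1 and Ifngr2 follow one another in this order on chromosome 16, with no other protein-coding gene between them in the RefSeq gene table, while the remaining 4 genes lie on other chromosomes. Il10rb encodes a chain shared by the receptors of interleukin-10 and of interferon-lambda. Its ratios were 0.26, 0.13, 0.17 and 0.13, higher on 4 of 4 arrays, but did not pass (mean 0.17 ± 0.06, adjusted p = 0.0768, limma). Tmem50b, the next gene after Ifngr2, had 0.14 ± 0.14 and did not pass either (adjusted p = 0.211, limma), and Olig1, the gene before Ifnar2, had no tested probe. Among the tested genes of this stretch Ifnar2 alone passed with its brightest probe; differences between neighbours other than Ifnar1 and Ifnar2 were not tested.

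The IFN-γ receptor itself was measured with 1 probe for each chain. Ifngr1, the ligand-binding chain, had levels of 12.80, 12.41, 12.72 and 12.76 in treated cells, against 12.50, 12.42, 12.26 and 12.51 in control cells. Treated values were the higher ones on replicates 1, 3 and 4 and about equal on replicate 2, and the groups overlapped. The mean ratio was 0.25 ± 0.20 with an adjusted p of 0.0880 (limma), and the 95% interval of 0.03 to 0.47 spans folds of 1.02 to 1.39. Unlike the p, the interval is not adjusted for the number of probes. With replicate 2 left out, Ifngr1 had 0.34 with an adjusted p of 0.00966 and passed. Ifngr2, the signalling chain that carries JAK2, had levels of 11.21, 10.79, 11.13 and 11.15 in treated cells, against 10.96, 11.17, 11.08 and 10.98 in control cells. Its ratio was −0.38 on replicate 2 and 0.04 to 0.25 on the others, with a mean of 0.02 ± 0.28 and an interval of 0.83-fold to 1.23-fold (adjusted p = 0.916, limma). Ifngr1 was above Ifngr2 in ratio on 4 of 4 arrays, by 0.23 ± 0.19 (exact sign-flip permutation p = 0.125, adjusted p = 0.208).

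The 3 kinases shared small ratios. Jak1, which serves both receptors, had levels of 12.23, 12.45, 12.33 and 12.15 in treated cells, against 12.10, 12.02, 11.88 and 12.06 in control cells. These values did not overlap, with treated cells higher, as held for 17.7% of all probes with both levels on all arrays. The mean ratio of 0.27 ± 0.19 did not pass (adjusted p = 0.0638, limma, 1.04-fold to 1.40-fold). Jak2, the kinase of the IFNGR2 chain, had levels of 11.56, 12.07, 11.61 and 11.72 in treated cells, against 11.46, 11.56, 11.57 and 11.34 in control cells. The groups overlapped although the ratio was above 0 on 4 of 4 arrays, as it was for 27.1% of tested probes, and its mean of 0.26 ± 0.23 did not pass (adjusted p = 0.0982, limma, 1.01-fold to 1.42-fold). Tyk2, the kinase of the IFNAR1 chain, had levels of 8.95, 8.45, 9.002 and 8.88 in treated cells, against 8.97, 8.79, 8.87 and 8.90 in control cells. Its ratio was −0.34 on replicate 2 and −0.02 to 0.13 on the others, with a mean of −0.06 ± 0.20 (adjusted p = 0.650, limma, 0.82-fold to 1.12-fold). Jak1 was above Tyk2 in ratio on 4 of 4 arrays, by 0.34 ± 0.30 (exact sign-flip permutation p = 0.125), Jak2 was above Tyk2 on 3 of 4 by 0.32 ± 0.41 (p = 0.25 by the same exact test), and Jak1 and Jak2 differed by 0.01 ± 0.30 (p = 0.875 by the same exact test). Adjusted over the 5 pairs these were 0.208, 0.312 and 0.875. Over the 3 kinases the 95% intervals, not adjusted for the number of probes, ran from 0.82-fold to 1.42-fold.

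**Figure D3:**
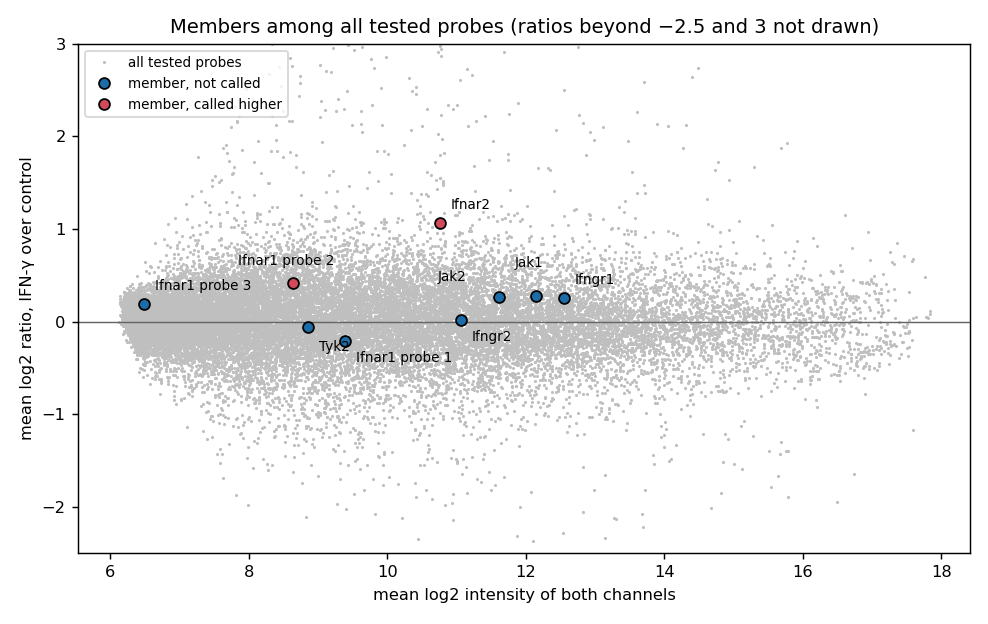
Mean log2 ratio of IFN-γ-treated over control cells against mean log2 intensity of both channels, with 1 grey point per tested probe and the 9 probes as large circles (red, called higher; blue, not called). The members spread over the range of intensities, and Ifnar2 at 1.06 lies at the upper edge of the cloud of points.

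The scaling decided how much of these small ratios was seen. Loess, the normalisation used above, removes any dependence of the ratio on intensity within an array. When only the median of each array was subtracted, the median of all tested probes was 0.50, 56.9% of them were called higher and 21.9% lower, and of the 9 probes 8 were called higher and 1 lower. Relative to that median of 0.50, Ifnar2 was higher by 1.54, Jak1, Jak2 and Ifngr1 by 0.78, 0.76 and 0.76, and Ifngr2 by 0.51. Tyk2 and the brightest Ifnar1 probe had 0.67 and 0.63 before that median was taken off and 0.16 and 0.13 relative to it. The dimmest Ifnar1 probe moved the other way, from 0.19 under loess to −0.28, or −0.79 relative to the median. The shift between the settings was thus not the same for all probes. With Feature Extraction's own ratios Ifnar2 had 1.04 and the same 2 probes were called, against 16.3% higher and 12.8% lower of all tested probes.

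**Figure D4:**
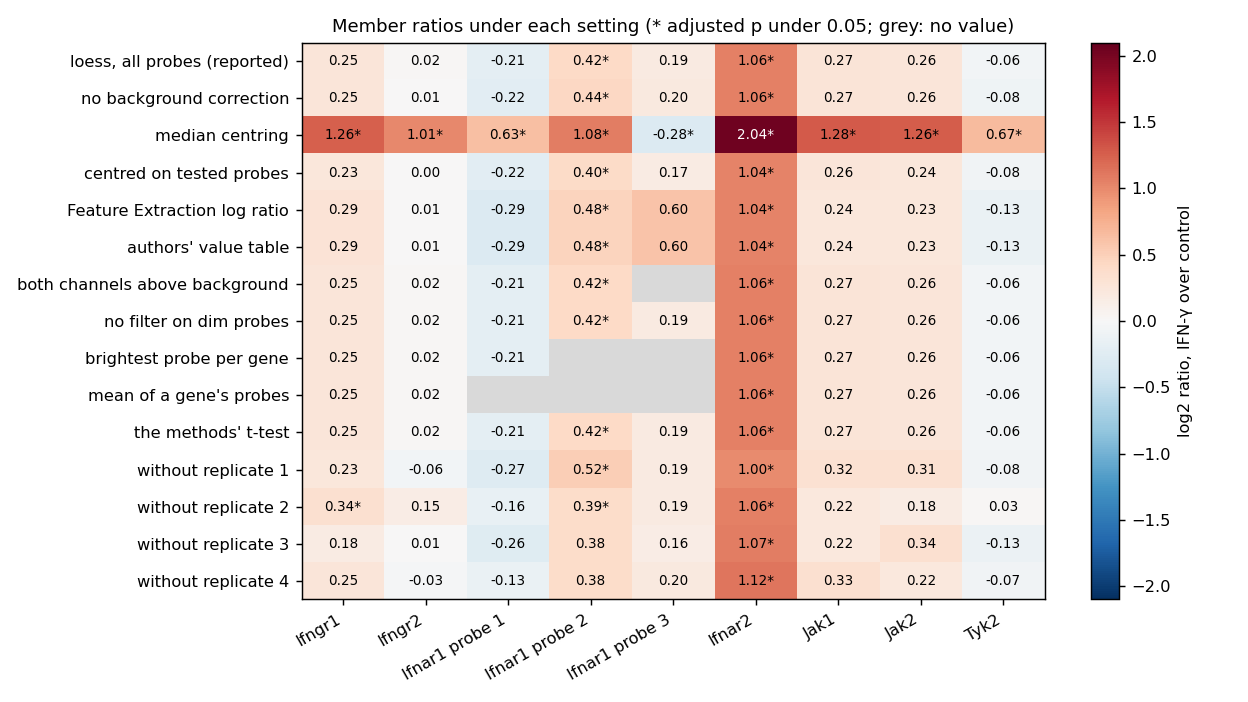
Log2 ratio of treated over control for each probe (columns), as colour and number, with an asterisk for an adjusted p under 0.05. Rows are the reported loess fit and the alternatives. The fold threshold, which changes no ratio and no adjusted p, is not drawn. Ifnar2 carries an asterisk in every row and the column of Tyk2 has one under median centring alone.

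Among the tested probes of other named genes with a like intensity, the one closest to Ifnar2 over the 4 arrays belonged to Plat, which encodes the tissue plasminogen activator. Its ratios were 1.10, 0.96, 0.97 and 0.86, at a Euclidean distance of 0.20 among 4229 candidates. The closest to Ifngr1 was Gcsh at 0.036, to Ifngr2 Hebp1 at 0.086, to Ifnar1 Ccdc84 at 0.096, to Jak1 Glud1 at 0.11, to Jak2 Hhat at 0.083 and to Tyk2 Abcc10 at 0.057. With 4 arrays such neighbours describe these ratios only.

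Other genes of the pathway were counted by their brightest tested probe. Over 95 tested genes in 8 lists 26 were called higher, 12 lower and 57 neither, with a median of 0.08, against 18.7% higher, 12.9% lower and a median of 0.03 for all 15684 genes. By the same count 1 of the 7 genes described here was called higher, with a median of 0.25.

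Ligand genes were rarely called, with a median log2 ratio of 0.02 over those tested. Of 21 interferon genes 16 were on the array by name and 11 were tested. Ifng and Ifnb1 were not tested, since no probe of theirs was well above background on enough arrays. All 11 tested genes stood well above background in treated cells on all arrays, and 9 did so in control cells. No ligand gene was called higher and 1, Ifnl3, was lower (−0.27 ± 0.09, with −0.09 on its second probe). The genes of interferon-alpha are near-identical copies, so their probes may share targets.

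Other receptors that signal through JAK1, JAK2 or TYK2 moved both ways, with 9 of 32 called higher, 6 lower and 17 neither, at a median of 0.07. Il13ra1, a chain of the receptors for interleukin-13 and interleukin-4, rose by 1.47 ± 0.26 (adjusted p = 0.00102, limma), with ratios of 1.23, 1.32, 1.49 and 1.83. Lepr, the leptin receptor, had −0.86 ± 0.50 and passed, with −0.37 on replicate 2 and −1.51 on replicate 4. Csf2rb, the common beta chain of interleukin-3 and related receptors, had −0.71 ± 0.19 and passed, but its second probe had 0.39 and was called higher. Jak3, the kinase outside this group, had −0.01 ± 0.40 and did not pass. Its probe stood well above background in control cells on only 2 of 4 arrays.

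Downstream of the kinases, Stat2, a transcription factor of the type I interferon response, rose by 2.23 ± 0.11. Stat3 had −0.65 ± 0.44 and passed, with 0.16 on its second probe. Of 7 tested interferon regulatory factors 3 were called higher and 0 lower, namely Irf1, Irf9 at 2.24 ± 0.11 and Irf7 at 1.61 ± 0.30. The Irf7 probe stood well above background in control cells on only 2 of 4 arrays. Irf9 is the DNA-binding partner of STAT2, and Irf7 amplifies type I interferon production.

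Inhibitors of the pathway also moved in part. In the SOCS family, to which the JAK inhibitor Socs1 belongs, 2 of 8 were called higher and 2 lower. Socs5 had 0.59 ± 0.32, and Socs2 had −0.83 ± 0.43 with −0.35 and −0.28 on its other probes. Of 17 phosphatases and other inhibitors 5 were called higher and 1 lower. Usp18, which binds IFNAR2 and blocks JAK1 there, rose by 2.55 ± 0.33 (adjusted p = 0.000222, limma). Its ratios were 3.00, 2.23, 2.54 and 2.42, and its probe stood well above background in control cells on 3 of 4 arrays. Pias4 had 0.48 ± 0.17 and Sh2b3, an adaptor that restrains JAK2, had −0.69 ± 0.26, both past the threshold. Among 12 chaperones and scaffolds 5 were called higher and 1 lower, with Hsp90b1 at 1.05 ± 0.17, Calr at 0.83 ± 0.53 and Hsp90ab1, a chaperone of JAK kinases, at 0.40 ± 0.21.

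**Figure D5:**
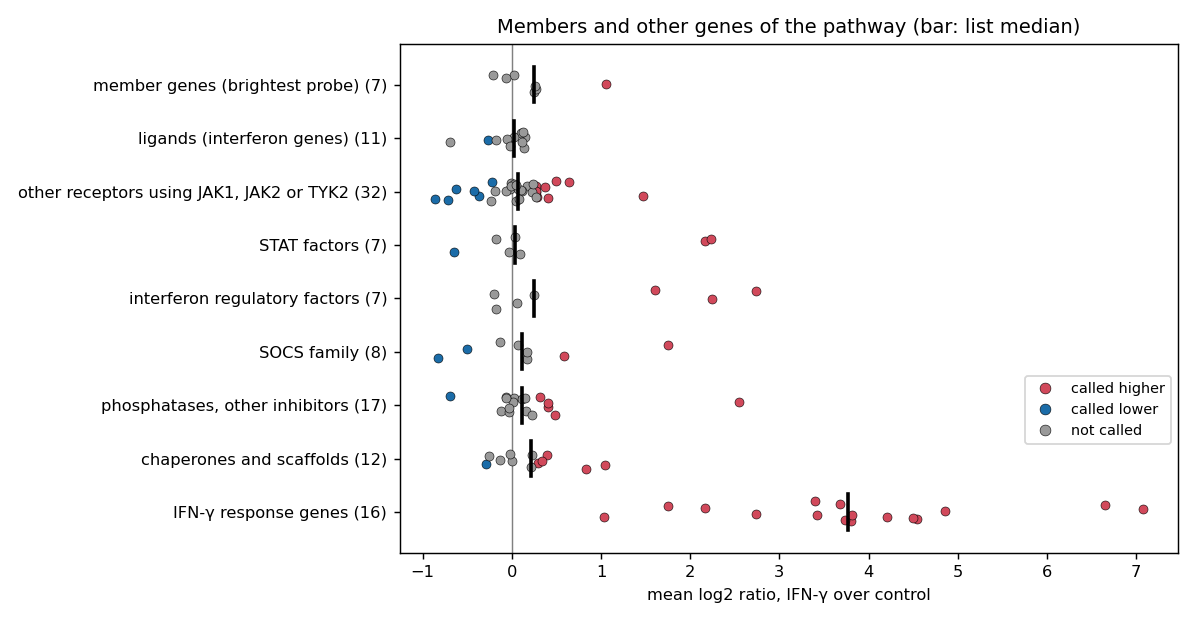
Mean log2 ratio of treated over control for the brightest tested probe of each gene, by list, with the number of tested genes in brackets and the list median as a black bar (red, called higher; blue, called lower; grey, not called). The median is 0.25 for the genes described here and 3.77 for the IFN-γ response list.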

How the data were processed

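Gene expression was measured on 4 arrays of 2 colours, with IFN-γ-treated RNA in Cy5 and control RNA in Cy3, per the labels. The authors scanned them and made the deposited spot intensities (median signal and median local background) with Feature Extraction, version 10.7.3.1, per the headers of the deposited files. The log10 ratio of Cy5 over Cy3 in the same deposited files is background-subtracted and dye-normalised, per the file headers. The authors' deposited value table is in log2 units, per the series design text. Against the log10 ratios over tested probes it had slopes of 3.32 and correlations of 0.9995 to 1.00, so its direction is Cy5 over Cy3. Its column medians were −0.124 to −0.105, and its centring is unknown.

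Here, median intensities were corrected with normexp (offset 50) and log2 ratios normalised by loess within each array, in limma 3.58.1 under R 4.3.3. Controls had weight 0, outlier spots were dropped, and repeated spots were averaged per probe. Channel levels come from the same ratios after Aquantile scaling. Of 39429 probes 26055 received 1 symbol, 0 several and 13374 none through accessions in the RefSeq gene table (GRCm38.p6), so further probes of these genes may be unnamed. Testing required a signal well above background on 3 or more of the 4 arrays in one channel, which all 9 member probes had. The header's grid build is mm9, so no gene coordinates are given beyond the promoter table's own. Each probe's mean was set against 0 by limma (lmFit, then eBayes; two-sided), and p-values were adjusted by Benjamini-Hochberg over the 28934 tested probes at 0.05. Adjusted p-values given with no other test come from limma. All 4 arrays lay on 1 slide with 1 scan, so no batch could be tested. The number of arrays limits the precision.

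The members, gene lists and tests were chosen with earlier results of these data known. Named pathway genes are the called genes of each list, at most 3, that changed most and had 1 sign on all arrays, the brightest where none was called, and the reference genes Irf1, Gbp3 and Socs1; 1 gene that the rule names is not reported here. Il10rb, Tmem50b and Olig1 were named for their position, and Ifng, Ifnb1, Ptprc, Myod1, Myog, Des, Igtp and Psmb8 after their values were seen. Alternatives covered background correction, scaling, the filter, the handling of probes, the test, the fold threshold and each array left out.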

Additional observations from a re-analysis of the deposited data

Results flagged for a closer look

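The second probe of Ifnar1 (A_55_P2454784) had a log2 ratio of 0.104 on replicate 1, against 0.50 to 0.53 on the other 3 arrays. This array was set apart because its gap to the nearest other array was 0.927 of the whole range, above Dixon's 95% critical value for 4 samples. Chance sets apart about 1 in 20 such groups, and 9 probes were examined. Without replicate 1 the probe had 0.52 with an adjusted p of 0.0182 (limma).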

How the results depend on the processing

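The call of Ifnar2 held under all 15 alternatives, with log2 ratios of 0.995 to 2.04. Not all of these could change its ratio. It stayed at 1.06 where only the filter, the handling of probes, the test or the fold threshold differed. The authors' value table repeated the 1.04 of Feature Extraction. The second Ifnar1 probe stayed positive where it was tested but passed no longer without replicate 3 or 4, and at 0.42 it is under 2-fold. Under median centring 8 member probes were called higher and 1 lower, with 16462 and 6335 among all tested probes, and the brightest Ifnar1 probe (0.63), the dimmest one (−0.28) and Tyk2 (0.67) changed sign; relative to the median of all tested probes, 0.50 there, they had 0.13, −0.79 and 0.16. That setting subtracts a constant per array and leaves any dependence on intensity in place. The share of called probes that were higher was 72.2% there and 56.8% under loess. With each replicate left out Tyk2 ranged from −0.126 (without replicate 3) to 0.0318 (without replicate 2), and Ifngr2 from −0.0561 (without replicate 1) to 0.154 (without replicate 2), with −0.0312 without replicate 4, none called. Counts over all tested features were 3106 higher and 2176 lower with the brightest probe per gene, 3169 and 2099 with each gene's probes averaged, and 418 and 323 at 2-fold or more; each of these left 1 member called higher, and the first pair of settings tests fewer features. The methods' t-test, unpaired on channel levels, called 6217 probes higher and 4484 lower unadjusted, 3949 and 2372 after Benjamini-Hochberg adjustment (2 members higher), and 409 and 241 with the added fold of 2 (1 member higher). Leaving out each replicate gave 1890 to 6310 higher and 1148 to 5525 lower, the highest without replicate 2 and the lowest without replicate 3, with 1 to 3 members higher and 0 lower. The cause of these shifts was not tested. The ratio within each array already pairs treated with control RNA, so the reported fit is the paired one and the methods' t-test the unpaired one. The Ifnar1 probe dim in control cells has a bound only.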
